A study of Drosophila melanogaster with 12 samples.

Results

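The 10 genes described here encode fly surface proteins with a known form that is held on the membrane by a glycosylphosphatidylinositol (GPI) anchor. They are the glypicans *dally* and *dlp*, the adhesion genes *Fas1*, *Fas2* and *klg*, the septate junction genes *Cont*, *Lac* and *Tsf2*, and the enzyme genes *Mmp2* and *Ace*. They were taken by FlyBase symbol, and not by level or change, from the 17737 genes of a count table. Each of the 10 was found as a single entry, and all 10 passed the filter on low counts in every comparison.

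A GPI anchor is a glycolipid that is built on the membrane of the endoplasmic reticulum and then attached to the end of a protein that carries the matching signal. *PIG-A* encodes the catalytic subunit of the enzyme that begins this synthesis, so a protein that needs the anchor depends on it to stay at the cell surface. In the fly head, anchored proteins take part in axon guidance, in adhesion between neurons and glia, in the barrier of the surface glia and in the breakdown of acetylcholine at synapses. RNA sequencing counts the transcripts of these genes and does not measure the anchor or the proteins.

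The study sequenced RNA of whole fly heads after RNA interference (RNAi) against *PIG-A* under a pan-neuronal or a pan-glial driver, with 3 libraries in each of 4 groups. The neuron-specific knockdown carried ELAV-GAL4 with RNAi (BDSC 62696), and its control carried ELAV-GAL4 with the AttP line (BDSC 36304). The glia-specific knockdown carried REPO-GAL4 with the same RNAi line, and its control carried REPO-GAL4 with the same AttP line. All flies thus carried a GAL4 driver, no treatment was applied, and the labels give 5 to 10 heads and an age of 3 to 5 days, whereas the methods give 10 heads of male flies at 3 days. The RNAi acts in the cells of the driver, and the heads also hold muscle, fat body, eye and cuticle, whose RNA is counted with the rest. A group of cells that is smaller and one with less RNA per cell cannot be told apart in such bulk samples.

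Library totals ranged over 20694850 to 31893782 counts, at which 3 counts correspond to 0.0941 to 0.145 counts per 1000000 library counts (CPM). *PIG-A* itself stood at 2.99, 2.54 and 3.06 CPM in neuron-specific knockdown heads and at 3.75, 5.19 and 3.62 CPM in their controls, with no overlap (log2 fold change −0.55 ± 0.20 SE, edgeR adjusted p = 0.284). In glia-specific knockdown heads it stood at 3.99, 4.88 and 5.28 CPM, against 4.81, 4.86 and 4.84 CPM in their controls, so the groups overlapped (−0.04 ± 0.16, adjusted p = 0.906). A sum over 10 muscle markers was 19710 CPM in neuron-specific knockdown replicate 3 and 20500 CPM in glia-specific control replicate 3, against 4080 to 6182 CPM in the other 10 libraries. Results that turn on either of these libraries are also given without it. All 10 markers of neurons were above 3 counts in each of the 12 libraries, and 9 or 10 of the 10 markers of glia and of muscle were. Markers of female flies (*Yp1*, *Yp2*, *Yp3* and *fit*) summed to 41100 to 187600 CPM, and *roX1* with *roX2*, which are male markers, to 1.55 to 7.54 CPM, values that go against heads of male flies alone.

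*Fas1*, whose product is an adhesion protein of axons, was by far the most abundant of the 10 transcripts. Per kilobase of exon it averaged 356 ± 46.5 CPM over the 12 libraries (SD), above 98.1% of the genes with a level, and it was highest of the 10 in all 12 libraries. *Lac*, a septate junction protein, came next at 43.3 ± 5.83 CPM per kilobase and was also above the gene that followed it in all 12 libraries. *Cont* (31.0), *dally* (29.9) and *Ace* (28.3) lay close together on this scale and changed places between libraries. *Ace* was above *klg* (20.7 CPM per kilobase) in all 12 libraries, while *klg*, *Fas2* (18.1), *Tsf2* (16.6) and *Mmp2* (16.4) overlapped one another. *dlp* was lowest at 14.1 ± 1.41 CPM per kilobase, below *Mmp2* in all 12 libraries and still above 57.9% of the genes. The lowest count of any of the 10 was 887 for *Tsf2* in neuron-specific control replicate 3, with an exact 95% Poisson interval of 830 to 947 that covers counting error only, so depth did not limit these values. Between the highest and the lowest of the 12 libraries a gene differed by 1.30-fold (*Mmp2*) to 1.63-fold (*Fas1*).

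**Figure D1:**
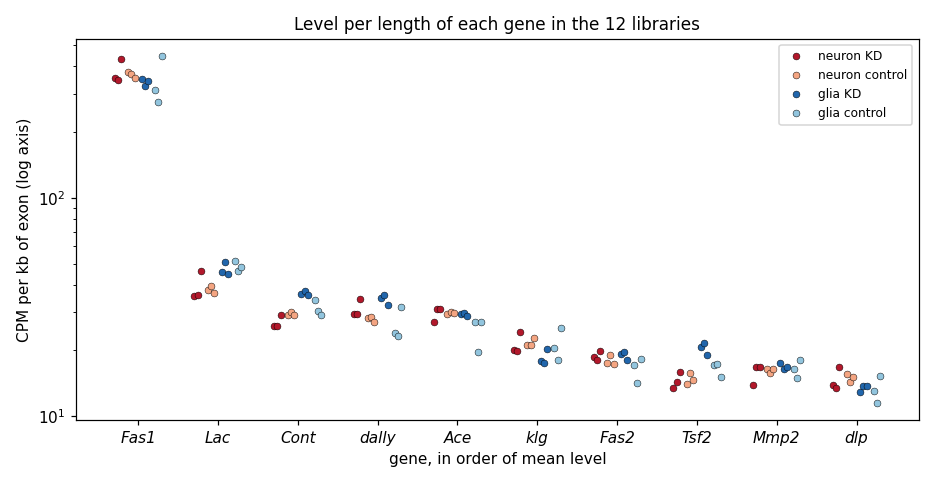
Level of each of the 10 genes per kilobase of exon (CPM per kb, log axis), with 1 point per library and genes ordered by their mean over 12 libraries. *Fas1* (356 CPM per kb) and *Lac* (43.3) stand apart in every library, while the neighbours *Cont*, *dally* and *Ace*, and *klg*, *Fas2*, *Tsf2* and *Mmp2*, overlap.

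In neuron-specific knockdown heads no gene of the set moved far from its control level. The fitted log2 fold changes ran only between −0.12 (*Cont*) and 0.16 (*dally*), 5 positive and 5 negative, with a median of −0.01 against 0.00 over all genes tested (50.6% of which were positive). A gene was called where its adjusted p did not exceed 0.05 and it changed 1.5-fold or more, and by edgeR's quasi-likelihood test 0 of the 10 were called, against 0.16% of 9983 genes, and DESeq2 also called 0 of the 10. None had an unadjusted p under 0.05, against 14.4% of all genes, and the smallest adjusted p was that of *dally*, 0.453. Leaving out neuron-specific knockdown replicate 3 brought 1 gene under that p. The 95% intervals of all 10 fold changes lay within 1.5-fold in either direction, which held for 64.3% of all genes. Only *dally* had knockdown and control libraries that did not overlap, 1 of 10 against 21.7% of all genes. Without neuron-specific knockdown replicate 3 that count was 6 and without replicate 1 it was 3, and without control replicate 2 it was 2. The share of all genes was computed only with all libraries. Groups overlap less readily with a library left out, so these counts cannot be set against the 21.7%.

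In glia-specific knockdown heads the values of *dally*, *Cont*, *Tsf2* and *Ace* lay above those of the control heads in all 3 libraries against all 3. The fitted log2 fold changes of these 4 genes were 0.38, 0.23, 0.31 and 0.24, and none of them passed the test. None of the 10 genes was called by edgeR, where 3.6% of 9951 genes were, and DESeq2 called 0 of the 10. *dally* and *Tsf2* had an unadjusted p under 0.05, 2 of 10 against 22.3% of all genes, and this count was 0 without glia-specific knockdown replicate 1 or without replicate 2. With 1 library left out it ranged up to 3. The 4 genes without overlap were all higher in knockdown heads, against 15.9% of all genes that were higher without overlap and 29.5% without overlap in either direction. Without glia-specific control replicate 3 the number without overlap was 6, with *Fas1* and *Fas2* added, and the share of all genes was not computed for that omission. Of the 10 log2 fold changes 7 were positive, against 47.3% of all genes, and their median was 0.12, against −0.02 over all genes. The 95% interval stayed within 1.5-fold for 8 of the 10, against 52.2% of all genes, with *dally* and *Ace* as the exceptions. That count was 4 without glia-specific knockdown replicate 3, 5 without replicate 1 and 5 without control replicate 1.

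**Figure D2:**
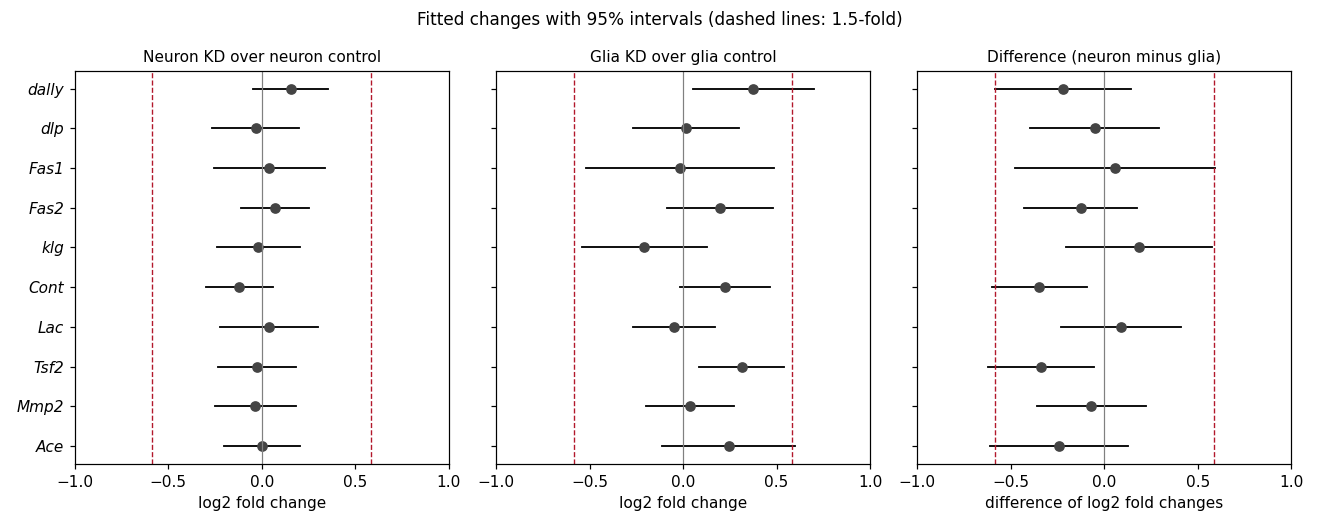
Fitted log2 fold change of each of the 10 genes (points) with its 95% interval (lines) in neuron-specific knockdown over control, in glia-specific knockdown over control, and for the difference of both, with dashed lines at 1.5-fold. In the neuronal comparison all 10 intervals lie inside the dashed lines, in the glial one the intervals of *dally* and *Ace* pass the upper line.

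*dally* and *dlp* encode the glypicans, core proteins that carry heparan sulfate chains and shape the spread of Wnt, Hedgehog and BMP signals. *dally* (FBgn0263930, 3L:8827505-8891192, plus strand) had 131, 132 and 155 CPM in neuron-specific knockdown heads, against 126, 128 and 121 CPM in control heads. The glial driver gave 155, 160.4 and 145 CPM in knockdown heads, against 108, 105 and 142 CPM in control heads. Under both drivers each knockdown library exceeded each control library, narrowly so in both. The lowest knockdown and the highest control library stood at 131.2 and 127.7 CPM under the neuronal driver. Under the glial driver they stood at 144.7 and 141.7 CPM, the latter in control replicate 3. The log2 fold change was 0.16 ± 0.09 (SE) in neuron-specific and 0.38 ± 0.14 in glia-specific knockdown, with adjusted p-values of 0.453 and 0.168. Without glia-specific control replicate 3, the library with the high muscle signal, the glial value was 0.53 with an adjusted p of 0.017, still under 1.5-fold, and over all alternatives the adjusted p ranged up to 0.412.

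*dlp* (FBgn0041604, 3L:14632601-14671609, plus strand) showed no such separation. Its level ranged over 50.8 to 63.2 CPM in neuron-specific knockdown heads and 54.1 to 58.5 CPM in their controls, and over 48.6 to 51.7 CPM in glia-specific knockdown heads and 43.5 to 57.5 CPM in their controls. The log2 fold changes were −0.03 ± 0.10 and 0.02 ± 0.12. Because library-wide shifts cancel in a ratio of both genes, the CPM of *dally* was divided by that of *dlp* in each library, a ratio chosen after the values were seen and given without a test. It was 2.52, 2.60 and 2.45 in neuron-specific knockdown heads, against 2.15, 2.36 and 2.12 in control heads. Under the glial driver it was 3.19, 3.10 and 2.80 in knockdown heads, against 2.203, 2.41 and 2.46 in control heads. Under both drivers the ratio was higher in every knockdown library than in every control library.

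Among 21 other genes of heparan sulfate synthesis, modification and release, the list that surrounds the glypicans, 0 were called in either knockdown comparison. Their median log2 fold change was 0.06 in neuron-specific knockdown, with 16 of 21 positive, and −0.02 in glia-specific knockdown, with 8 of 21 positive, against 0.00 and −0.02 over all genes. The smallest adjusted p belonged to *Papss*, which makes the sulfate donor for these chains, at 79.0 ± 11.9 CPM in neuron-specific knockdown heads and 54.7 ± 3.53 CPM in control heads (SD, n = 3 each, log2 fold change 0.53, adjusted p = 0.159). With DESeq2 its neuron-specific change was 0.54 (adjusted p = 0.00907), under the 1.5-fold needed for a call. With edgeR it was called when neuron-specific knockdown replicate 3 was left out (0.64, adjusted p = 0.0266). Over all alternatives the adjusted p ranged up to 0.503. In glia-specific knockdown heads *Papss* stood at 55.4 ± 10.2 CPM, against 41.9 ± 4.36 CPM in control heads (0.40, adjusted p = 0.165). The difference between both knockdowns was 0.13 (adjusted p = 0.754). Of 14 ligands and receptors of the pathways that glypicans act on, 0 were called in either knockdown comparison, with medians of 0.04 and 0.06. In glia-specific knockdown their lower quartile was −0.43. There 4 of the 14 were lower and 1 higher at an unadjusted p under 0.05 (35.7%, against 22.3% of all genes). In neuron-specific knockdown 0 of the 14 had such a p, against 14.4% of all genes.

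*Fas1*, *Fas2* and *klg* encode adhesion proteins of neurons, *klg* of the immunoglobulin family with a known role in photoreceptors and in memory. *Fas1* (FBgn0285925, 3R:16625238-16639771, plus strand) had 1719, 1684 and 2095 CPM in neuron-specific knockdown heads, against 1828, 1788 and 1723 CPM in control heads. With the glial driver it had 1711, 1587 and 1674 CPM in knockdown heads, against 1522, 1331 and 2167 CPM in control heads. The groups overlapped under both drivers, and the high library of each was the one with the high muscle signal. The log2 fold changes were 0.04 ± 0.13 and −0.02 ± 0.21, and the glial one was 0.22 without glia-specific control replicate 3.

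*Fas2* (FBgn0000635, X:4132887-4206093, minus strand) is made both as GPI-anchored and as transmembrane forms, and the counts per gene do not separate its 7 annotated transcripts. It ranged over 132 to 145 CPM in neuron-specific knockdown heads and 127 to 139 CPM in control heads, and over 132 to 144 CPM in glia-specific knockdown heads and 104 to 133 CPM in control heads. All of these ranges overlapped, with log2 fold changes of 0.07 ± 0.08 and 0.20 ± 0.12 (adjusted p = 0.717 and 0.382). *klg* (FBgn0017590, 3R:22899284-22961731, plus strand) ranged over 80.4 to 98.3 CPM in neuron-specific knockdown heads and 85.6 to 92.2 CPM in control heads. Under the glial driver it ranged over 70.7 to 82.0 CPM in knockdown heads and 73.1 to 103 CPM in control heads, the lowest fitted value of the set in this comparison (−0.21 ± 0.14, adjusted p = 0.441). Among 22 other genes of neuronal adhesion and guidance 0 were called in either knockdown, with medians of −0.02 in both. The smallest adjusted p was 0.128 for *Fas3*, an adhesion gene with no anchor, at 66.2 ± 2.78 CPM in glia-specific knockdown heads and 79.0 ± 2.44 CPM in control heads.

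*Cont*, *Lac* and *Tsf2* encode proteins of the septate junction, which seals epithelia and the surface glia that form the blood-brain barrier. *Cont* (FBgn0037240, 3R:4381306-4387018, plus strand) had 123, 123 and 138 CPM in neuron-specific knockdown heads, against 138, 142 and 137 CPM in control heads. In glia-specific knockdown heads it had 172, 178 and 170.4 CPM, against 162, 144 and 139 CPM in control heads. The glial knockdown libraries thus all lay above their controls, whereas 2 of the 3 neuronal knockdown libraries lay below theirs and replicate 3 lay among them. The log2 fold changes were −0.12 ± 0.08 (adjusted p = 0.516) and 0.23 ± 0.10 (adjusted p = 0.251).

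*Tsf2* (FBgn0036299, 3L:12530436-12533724, minus strand), an anchored transferrin that binds iron and is needed for septate junctions, had 39.0, 41.4 and 46.1 CPM in neuron-specific knockdown heads, against 40.5, 45.6 and 42.3 CPM in control heads. Its level was 60.1, 62.4 and 55.2 CPM in glia-specific knockdown heads, against 49.3, 50.1 and 43.5 CPM in control heads. The neuronal groups overlapped, and the glial groups did not. The log2 fold changes were −0.02 ± 0.09 (adjusted p = 0.929) and 0.31 ± 0.10 (adjusted p = 0.119), the lowest adjusted p of the set in the glial comparison. Over all alternatives that adjusted p ranged over 0.0559 to 0.366.

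*Lac* (FBgn0010238, 2R:12453190-12465630, plus strand) showed little difference between knockdown and control. It had 76.9, 77.1 and 99.5 CPM in neuron-specific knockdown heads, against 81.3, 85.5 and 79.2 CPM in control heads. In glia-specific knockdown heads it had 98.6, 109 and 97.1 CPM, against 111, 100.1 and 104 CPM in control heads. Knockdown and control overlapped under each driver, with log2 fold changes of 0.04 ± 0.11 and −0.05 ± 0.09, and the neuronal one was −0.087 without neuron-specific knockdown replicate 3. Set against *Lac* in the same library, a ratio again chosen after the values were seen and not tested, *Tsf2* stood at 0.610, 0.570 and 0.569 in glia-specific knockdown heads and at 0.446, 0.500 and 0.417 in control heads. The same ratio overlapped under the neuronal driver, at 0.463 to 0.537 in knockdown heads and 0.498 to 0.534 in control heads. *Cont* over *Lac* was 1.75, 1.63 and 1.76 in glia-specific knockdown heads and 1.46, 1.44 and 1.33 in control heads, higher in each knockdown library. Under the neuronal driver it was 1.60, 1.59 and 1.39 in knockdown heads and 1.69, 1.66 and 1.73 in control heads, lower in each knockdown library.

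**Figure D3:**
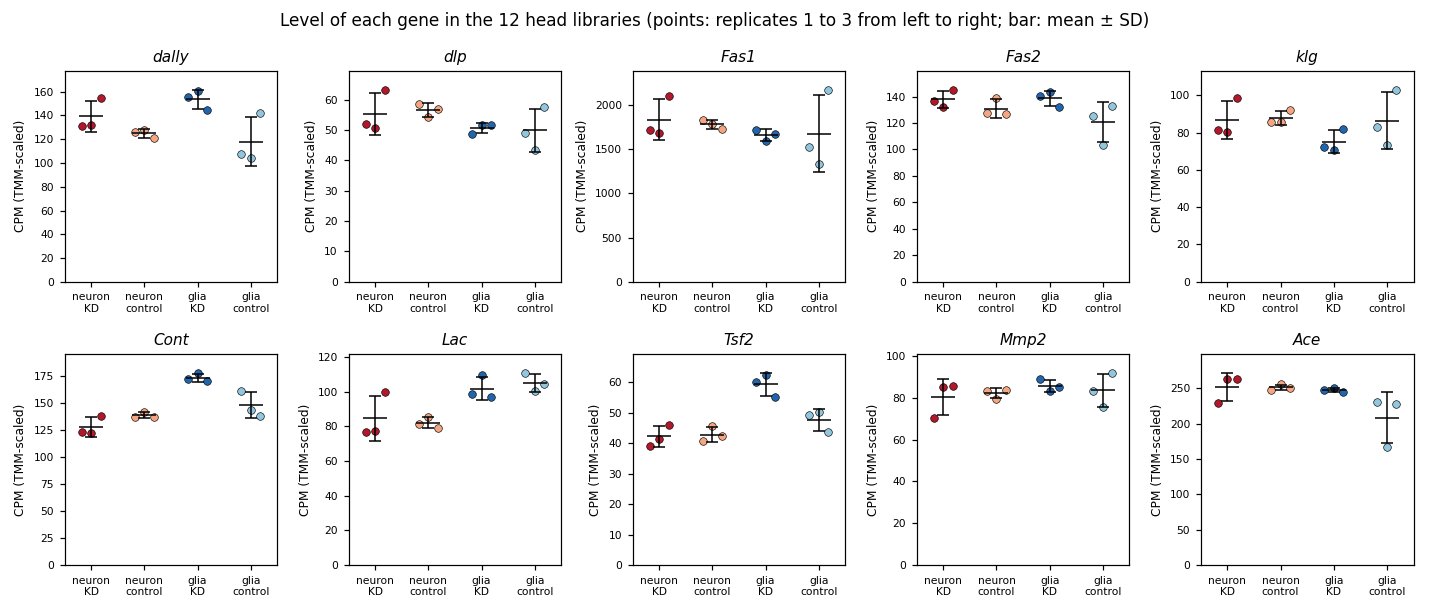
Level of each of the 10 genes in CPM after scaling of all 12 libraries together (vertical axes start at 0), with 1 point per library and bars for the mean ± SD of 3 libraries. *Tsf2*, *Cont*, *dally* and *Ace* sit higher in all 3 glia-specific knockdown libraries than in all 3 controls, and *Lac* sits lower in neuron-specific than in glia-specific controls.

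Of 27 other septate junction genes, 1 was called in glia-specific knockdown, a count near the share of 3.6% of all genes called there. In neuron-specific knockdown 0 of the 27 were called, against 0.16% of all genes. The medians were 0.07 and 0.02. The called gene was *Gli*, which encodes gliotactin, the protein of junctions where 3 cells meet. It had 85.0, 86.8 and 78.5 CPM in glia-specific knockdown heads, against 44.0, 38.7 and 44.9 CPM in control heads. It thus rose in glia-specific knockdown by a log2 fold change of 0.97 ± 0.10 (adjusted p = 0.00972), and the groups lay far apart. In neuron-specific knockdown heads it had 40.8, 36.3 and 42.9 CPM, against 39.5, 38.2 and 38.6 CPM in control heads (0.04 ± 0.08). With 2 libraries in a group the adjusted p of the glial change came to 0.0503 without control replicate 1, 0.0507 without knockdown replicate 2 and 0.0502 without knockdown replicate 3, at log2 fold changes of 0.94 to 1.01. *moody*, a receptor of the surface glia named here after its values were seen, averaged 109.5 ± 7.74 CPM in glia-specific knockdown heads and 73.7 ± 1.49 CPM in control heads (0.57, adjusted p = 0.0217), under the 1.5-fold needed for a call. Other members of the list lay on the other side, such as *nrv1*, likewise named after its values were seen, at 166 ± 4.68 CPM in glia-specific knockdown heads and 210.2 ± 14.9 CPM in control heads (−0.34, adjusted p = 0.112).

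The markers of glia, a list that also holds *moody* and *wrapper*, lay on the same side as *Gli*, *Cont* and *Tsf2* in glia-specific knockdown. The sum over 10 markers of glia was 2795 to 3059 CPM in glia-specific knockdown heads and 2115 to 2994 CPM in control heads. The overlap rested on control replicate 3, the library with the high muscle signal, at 2994 CPM, while the other controls had 2115 and 2337 CPM. Of the 9 tested markers 8 were positive, against 47.3% of all genes, with a median log2 fold change of 0.26, against −0.02. Among these markers 1 was called higher, against 3.6% of all genes called in either direction. At an unadjusted p under 0.05, 5 were higher and 0 lower, against 22.3% of all genes in either direction. In neuron-specific knockdown heads the sum was 2244, 2107 and 3125 CPM, the last in the library with the high muscle signal, and in control heads 1917 to 2055 CPM, with 7 of 9 positive and a median of 0.17. The driver's own gene *repo* stood at 59.8 ± 1.74 CPM in glia-specific knockdown heads and 51.6 ± 3.49 CPM in control heads (0.21, adjusted p = 0.226). The part of these markers in the values of *Cont*, *Tsf2* and *Gli* was not tested.

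*Mmp2* and *Ace* encode anchored enzymes, a matrix metalloproteinase that cuts extracellular matrix and the acetylcholinesterase that ends cholinergic transmission. *Mmp2* (FBgn0033438, 2R:9611139-9683858, minus strand) ranged over 70.4 to 85.5 CPM in neuron-specific knockdown heads and 79.5 to 83.8 CPM in control heads, and over 83.0 to 88.9 CPM in glia-specific knockdown heads and 75.8 to 91.7 CPM in control heads. It varied least of the 10 genes, with log2 fold changes of −0.03 ± 0.09 and 0.03 ± 0.10. The annotation places 287 exonic bases of it opposite *asRNA:CR44069*, and the treatment of strand in counting is not given in the sources used here, so reads of both cannot be told apart there. Of 16 other genes of the matrix and its remodelling 0 were called in either knockdown, with medians of 0.15 and −0.03. In neuron-specific knockdown 5 of the 16 were higher and 0 lower at an unadjusted p under 0.05 (31.2%, against 14.4% of all genes). In glia-specific knockdown 2 were higher and 1 lower (18.8%, against 22.3%).

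*Ace* (FBgn0000024, 3R:13222951-13259517, minus strand) had 229, 264 and 263 CPM in neuron-specific knockdown heads, against 248, 256 and 251 CPM in control heads. Its level was 248, 251 and 244 CPM in glia-specific knockdown heads, against 230, 167 and 229 CPM in control heads. The glial groups did not overlap, and most of their distance lay in control replicate 2. The log2 fold changes were 0.00 ± 0.09 and 0.24 ± 0.15 (adjusted p = 0.997 and 0.394). Of 15 other cholinergic genes, for transmitter synthesis, transport and receptors, 0 were called. In glia-specific knockdown 14 of the 15 were negative, with a median log2 fold change of −0.12, and in neuron-specific knockdown 8 of 15 were negative, with a median of −0.02. Over all genes 47.3% were positive in glia-specific knockdown, and of the markers 3 of 10 for neurons (median −0.07) and 0 of 10 for photoreceptors (median −0.19) were, whose part in this was not tested. In the knockdown comparisons the smallest adjusted p was that of *nAChRalpha2*, a nicotinic receptor subunit, at 35.7 ± 1.73 CPM in glia-specific knockdown heads and 45.0 ± 4.08 CPM in control heads (−0.33, adjusted p = 0.115).

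The difference between both knockdowns was tested as an interaction in 1 fit of the 12 libraries, as the log2 fold change of the neuron-specific knockdown minus that of the glia-specific one. *Cont* (−0.35 ± 0.12) and *Tsf2* (−0.34 ± 0.13) had the lowest values, which means that their fold change was lower in neuron-specific than in glia-specific knockdown. The 9 tested markers of glia had a median of −0.35 in the same interaction, with 7 negative and 1 called lower (*wrapper*), and their part in the values of *Cont* and *Tsf2* was not tested. Neither passed, with adjusted p-values of 0.123 and 0.172, and 0 of the 10 genes were called by edgeR or by DESeq2, against 3.01% of 10257 genes by edgeR. The 2 genes were the only ones of the 10 with an unadjusted p under 0.05, against 21.1% of all genes, and this count was 1 without neuron-specific knockdown replicate 1, without neuron-specific control replicate 2 or without glia-specific knockdown replicate 2. The differences of the 10 were positive in 3, against 52.2% of all genes, with a median of −0.10 against 0.02. For 5 of the 10 the 95% interval lay within 1.5-fold, against 36.4% of all genes, and for 8 without glia-specific control replicate 3 or with DESeq2. With both libraries of high muscle signal left out, an alternative chosen after that signal was seen, 4 genes had an unadjusted p under 0.05, the interval lay within 1.5-fold for 5, and *dally* stood at −0.46 (adjusted p = 0.0452, under 1.5-fold), against −0.22 (adjusted p = 0.467) with all 12, and over all alternatives its adjusted p ranged up to 0.624.

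Of the surrounding lists, 4 genes were called in this interaction, in which 3.01% of 10257 genes were called. The lists of 21 heparan sulfate, 24 GPI synthesis, 23 adhesion, 15 cholinergic, 16 matrix and 7 iron genes held 0 of these calls. *Gli* (−0.93 ± 0.12, adjusted p = 0.00438) and *l(2)gl*, a septate junction and polarity gene (−0.62 ± 0.14, adjusted p = 0.0371), were the called ones of 27 septate junction genes. *l(2)gl* averaged 66.7 ± 5.62 CPM in neuron-specific knockdown heads and 81.4 ± 8.34 CPM in control heads, and 89.9 ± 7.63 CPM in glia-specific knockdown heads and 71.5 ± 3.56 CPM in control heads. Of 10 further genes of GPI-anchored proteins *wrapper*, a protein of the glia that ensheath axons, was called (−0.64 ± 0.14, adjusted p = 0.0302). It had 43.4, 41.5 and 34.9 CPM in neuron-specific knockdown heads, against 51.2, 53.7 and 51.3 CPM in control heads, and 62.4, 56.9 and 60.3 CPM in glia-specific knockdown heads, against 51.4, 53.9 and 44.7 CPM in control heads. The knockdown libraries lay below all controls under the neuronal driver and above all controls under the glial one, and neither single comparison was called (−0.38 and 0.26, adjusted p = 0.191 and 0.192). *dpp*, the BMP ligand whose spread glypicans shape, was the called one of 14 ligands and receptors (0.69 ± 0.16, adjusted p = 0.037). It averaged 31.0 ± 3.94 CPM in neuron-specific knockdown heads and 26.8 ± 1.04 CPM in control heads, and 23.4 ± 1.84 CPM in glia-specific knockdown heads and 32.7 ± 3.46 CPM in control heads. *Gli* was called under all 17 alternatives, whereas *l(2)gl*, *wrapper* and *dpp* each lost the call under 11 of 17, most of them with 1 library left out.

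**Figure D4:**
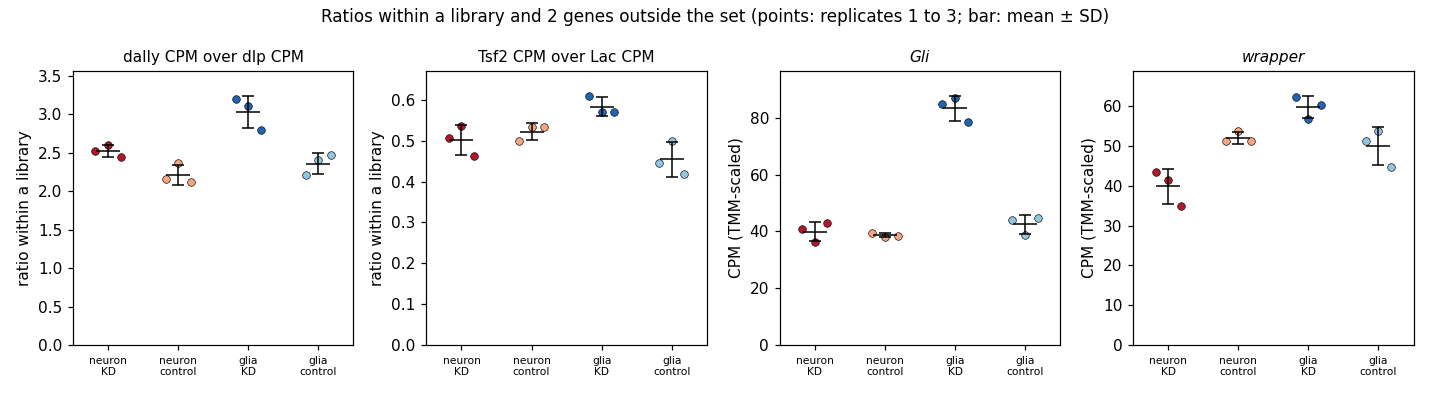
Ratios of CPM within each library for *dally* over *dlp* and *Tsf2* over *Lac*, and levels of *Gli* and *wrapper* in CPM (vertical axes start at 0), with 1 point per library and bars for the mean ± SD of 3 libraries. *Gli* lies at 78.5 to 86.8 CPM in glia-specific knockdown heads and at 36.3 to 44.9 CPM in all other groups, and *wrapper* lies on opposite sides of its controls under both drivers.

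The neuron-specific control heads were set against the glia-specific control heads to compare both drivers without knockdown. *Lac* was lower with ELAV-GAL4 in every library, at 79.2 to 85.5 CPM in neuron-specific control heads and 100.1 to 111 CPM in glia-specific control heads, a log2 fold change of −0.35 ± 0.09. Its adjusted p was 0.0758 with edgeR and 0.0373 with DESeq2, under 1.5-fold in both, and over all alternatives it ranged up to 0.315. *Ace* was the other gene without overlap, at 248 to 256 CPM in neuron-specific control heads and 167 to 230 CPM in glia-specific control heads (0.27 ± 0.15, adjusted p = 0.361). None of the 10 was called by edgeR or DESeq2, against 4.04% of 10028 genes by edgeR, and 1 had an unadjusted p under 0.05, against 19.6% of all genes. That count was 4 without glia-specific control replicate 3. The groups of 2 of the 10 did not overlap, against 27.2% of all genes, both with all libraries. The count of the 10 was 9 without glia-specific control replicate 3 and 4 without neuron-specific control replicate 2. The share of all genes was not computed with a library left out, where groups overlap less readily, so these counts have no share to stand against. Of the 10 changes 6 were positive, against 48.4% of all genes, and 8 intervals lay within 1.5-fold, against 52.3%. Of the lists, only *wb*, a laminin subunit gene of the matrix, was called, at 12.7 ± 1.17 CPM in neuron-specific control heads and 23.3 ± 4.55 CPM in glia-specific control heads (−0.87 ± 0.17, adjusted p = 0.0303), a call lost under 5 of 11 alternatives. In knockdown heads *wb* had 31.1, 18.5 and 26.1 CPM under the neuronal driver and 25.6, 27.6 and 22.8 CPM under the glial one. The neuron-specific controls, at 13.2, 13.6 and 11.4 CPM, were thus the lowest of the 4 groups, although *wb* was called in neither knockdown comparison. Driver, genetic background and any batch of collection cannot be told apart in the comparison of controls.

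Genes that make or remodel the anchor itself were also without a call. Of 24 tested genes of GPI synthesis, *PIG-A* among them, 0 were called in any comparison, with a median log2 fold change of −0.04 in neuron-specific knockdown (7 of 24 positive) and 0.05 in glia-specific knockdown (16 of 24 positive). In the knockdown comparisons the smallest adjusted p was 0.118, for *PGAP2*, which remodels the lipid of the anchor, at 11.3 ± 0.642 CPM in glia-specific knockdown heads and 14.2 ± 0.935 CPM in control heads (−0.34). Of the 10 further anchored proteins, 4 of which are also among the septate junction genes, 0 were called in either knockdown, with medians of 0.00 and −0.08. Under 1 of 11 alternatives 1 of them was called in glia-specific knockdown. *rtv*, named here after its values were seen, averaged 4.85 ± 0.487 CPM in glia-specific knockdown heads and 7.31 ± 1.04 CPM in control heads (−0.59, adjusted p = 0.0889). Its neuron-specific change was 0.37 (adjusted p = 0.514). Of 7 tested iron genes, listed because *Tsf2* is a transferrin, 0 were called in the main edgeR fit of any comparison. In glia-specific knockdown 1 to 2 were called under 3 of 11 alternatives, and in the interaction 1 under 3 of 17. Between controls 1 to 2 were called under 4 of 11 alternatives, among them without glia-specific control replicate 2 or 3. *Zip99C*, an iron and zinc transporter, had the smallest adjusted p at 56.9 ± 0.849 CPM in glia-specific knockdown heads and 89.2 ± 18.5 CPM in control heads (−0.65, adjusted p = 0.0658). It was called without glia-specific control replicate 3 (−0.80, adjusted p = 0.00523), by DESeq2 and in 1 fit of all 12 libraries.

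The spread of the 10 genes between replicates differed by group. The median coefficient of variation over the 10 was 10.2% in neuron-specific knockdown and 3.45% in its control, and 4.0% in glia-specific knockdown and 13.5% in its control, where *Fas1* reached 26.2%. Neuron-specific knockdown replicate 3 was the highest of its group for 9 of the 10 genes, against 38.9% of all genes, and its median log2 ratio to the other libraries of the group was 0.22. Glia-specific control replicate 3 was the highest for 6 of the 10 (36.5% of all genes, median 0.21). Glia-specific control replicate 2 was the lowest for 8 of the 10 (31.7% of all genes, median −0.27). Both replicates 3 were those with muscle marker sums of 19710 and 20500 CPM, while glia-specific control replicate 2 had 4359 CPM. The part of muscle RNA in these shifts was not tested.

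**Figure D5:**
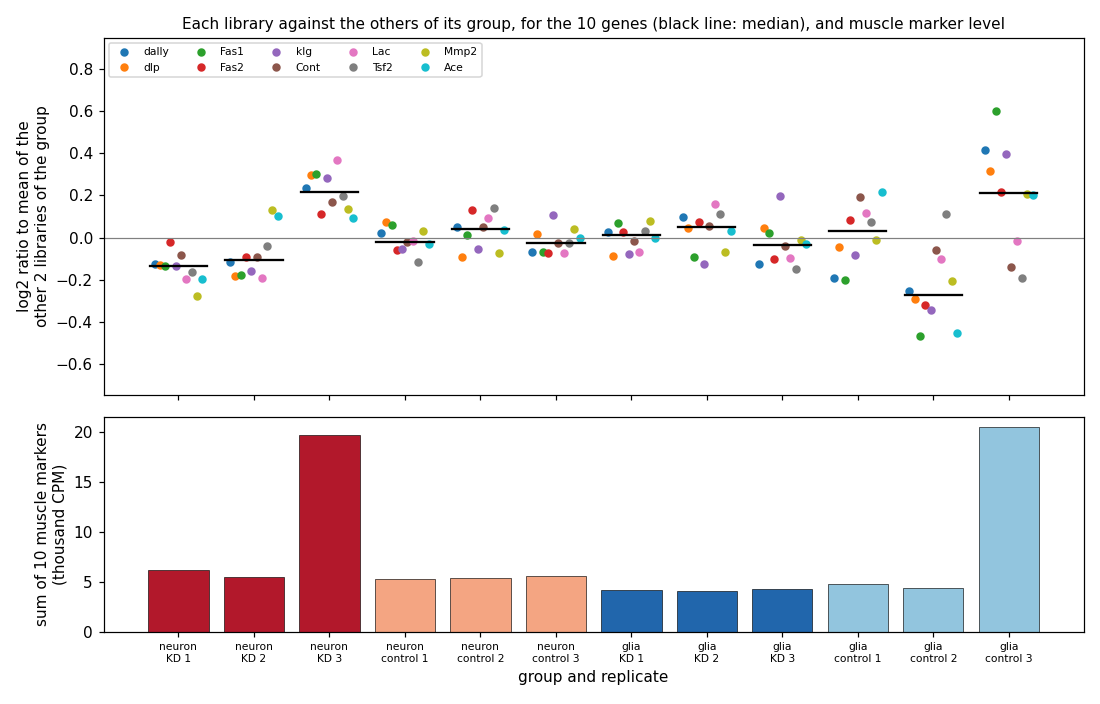
Upper panel: log2 ratio of each library to the mean of the other libraries of its group, 1 point for each of the 10 genes and a black line for their median. Lower panel: sum of 10 muscle markers, on an axis in units of 1000 CPM. Neuron-specific knockdown replicate 3 (median 0.22) and glia-specific control replicate 3 (0.21) lie high and carry the high muscle signal, and glia-specific control replicate 2 (−0.27) lies low without it.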

How the data were processed

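RNA of whole heads was sequenced from TruSeq Stranded mRNA libraries. The authors used seqtk, Bowtie2 and SAMtools with the fly genome dm6. The deposited counts are whole, unscaled numbers of reads for each FlyBase gene, and the counting tool is not given in the sources used here. The authors' deposited DESeq2 tables of fold changes and p-values were not used.

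Groups were taken from the labels. In R 4.3.3, edgeR 4.0.16 (TMM, filterByExpr, quasi-likelihood F test, two-sided) was fitted to the libraries of each comparison, to all 12 for the interaction, and p-values were adjusted over all genes tested by the Benjamini-Hochberg method. Calls needed an adjusted p not above 0.05 and a change of 1.5-fold or more. Intervals are the log2 fold change ± the t quantile times its SE. CPM were scaled by TMM over 12 libraries, and exon lengths came from the Ensembl annotation. Scripts were tested on simulated data. Alternatives were DESeq2 1.42.0, RLE scaling, no filter, a replicate block, 1 fit of 12 libraries and each library left out. Shares over all genes come from the main edgeR fits with all libraries, and not from the alternatives. Nothing says that replicates came from separate cultures or crosses, so p-values measure the spread between these libraries. The 10 genes and all lists were chosen with earlier results of these data known. The text names all 10, *PIG-A*, up to 3 called genes of each list, otherwise the gene with the smallest adjusted p in a knockdown comparison, and markers that move with a result (*repo*). *moody*, *nrv1* and *rtv* were chosen after their values were seen.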

Additional observations from a re-analysis of the deposited data

Results flagged for a closer look

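For 4 genes of the surrounding lists the change differed between the neuronal and the glial driver by the interaction test of the 12 libraries. They were 2 of 27 septate junction genes, 1 of 10 further anchored proteins and 1 of 14 ligands and receptors, with 0 in the other lists. In the same test 3.01% of 10257 genes were called, so the calls are not particular to these lists. The difference is given here as the log2 fold change in neuron-specific knockdown heads minus that in glia-specific knockdown heads. The difference was −0.93 for *Gli* (adjusted p = 0.00438), whose log2 fold changes were 0.04 in neuron-specific and 0.97 in glia-specific knockdown. It was −0.62 for *l(2)gl* (adjusted p = 0.0371), −0.64 for *wrapper* (adjusted p = 0.0302) and 0.69 for *dpp* (adjusted p = 0.037). The smallest of these adjusted p-values belonged to *Gli*, and the other 3 calls did not hold in most fits with 1 library left out. None of the 10 genes of the set met this test.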

How the results depend on the processing

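None of the 10 genes was called in any comparison under any alternative. Of 500 alternative values of their log2 fold changes 466 kept the direction and side of the threshold and 34 reversed in sign, and the cause was not tested. Most of these values lay near 0, the exception being *klg* in the interaction (0.19), which reversed only with both libraries of high muscle signal left out. With 1 library left out, and in the interaction also with both of those, the values that reversed ranged as follows. In neuron-specific knockdown *Ace* ranged over −0.034 to 0.061, *dlp* over −0.13 to 0.025, *Fas1* over −0.060 to 0.097, *klg* over −0.11 to 0.031, *Lac* over −0.087 to 0.10, *Mmp2* over −0.080 to 0.049 and *Tsf2* over −0.086 to 0.027. In glia-specific knockdown *dlp* ranged over −0.081 to 0.13, *Fas1* over −0.16 to 0.22 and *Mmp2* over −0.039 to 0.11. In the interaction *dlp* ranged over −0.27 to 0.040, *Fas1* over −0.28 to 0.20, *klg* over −0.058 to 0.29, *Lac* over −0.045 to 0.15 and *Mmp2* over −0.19 to 0.010, where the low ends of *dlp*, *Fas1*, *klg* and *Mmp2* come from leaving out both. Between controls *dally* ranged over −0.0094 to 0.23, *Fas1* over −0.062 to 0.31, *klg* over −0.093 to 0.16 and *Mmp2* over −0.10 to 0.044. Same-numbered libraries of knockdown and control had correlated deviations of −0.152 to 0.148. With 3 libraries in a group this cannot decide whether the numbers pair the samples, and the main fits did not pair them. With the replicate block, 0 of the 10 genes were called, *Ace* stood at −0.00085 in neuron-specific and *Fas1* at 0.015 in glia-specific knockdown. DESeq2 called more genes than edgeR, 278 against 16 in neuron-specific knockdown, 698 against 358 in glia-specific knockdown, 686 against 309 in the interaction and 650 against 405 between controls. Counts of called genes in the surrounding lists stayed between 0 and 2 under every alternative. With 1 library left out, calls were gained as follows. In neuron-specific knockdown 1 matrix gene was called without its replicate 2, and 1 matrix and 1 heparan sulfate gene without its replicate 3. In glia-specific knockdown 1 cholinergic, 1 iron and 1 matrix gene were called without its control replicate 3. In the interaction 1 cholinergic and 1 iron gene were called without glia-specific control replicate 3, 1 matrix gene without neuron-specific knockdown replicate 2 or glia-specific control replicate 2, and 1 gene of GPI synthesis without glia-specific knockdown replicate 3. Between controls 1 adhesion, 1 cholinergic, 2 iron and 2 matrix genes (1 with all libraries) were called without glia-specific control replicate 3, and 1 iron gene without replicate 2.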
